A study of Drosophila melanogaster with 69 samples.

Results

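The genes described here, called early genes below, came to be higher in chinmoST than in wild-type testes between day 1 and day 3. They were chosen by a fixed rule on TPM, the length-corrected share of a library's transcripts that RSEM assigned to a gene. For each gene the mean TPM of a group was taken as log2(mean + 1), and chinmoST minus wild type was computed in testes at each day. A gene was chosen by a difference of less than 0.3 in size at day 1 and of at least 0.8 at both day 3 and day 5. Wild-type replicate 1 of days 3 and 5 was left out of the means. Of 17807 genes in the tables, 78 met the rule, so its upper limit of 150 genes, ranked by the mean difference of days 3 and 5, was never reached. The testis values of days 1, 3 and 5 chose these genes and are given as a description without a test. The later testis libraries and all ovary libraries were not used by the rule.

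The groups follow the strain label, chinmoST or Oregon R (wild type). As background, chinmoST is a mutation that removes Chinmo from the somatic cyst stem cells of the testis. The genotype label of the chinmoST libraries lists Sod1[X-39] with e[1] over the balancer TM3, which carries Sb[1] and Ser[1], and names no chinmo allele. Adult testes and ovaries of both genotypes were collected at days 1, 3, 5, 7, 9 and 11. The first time point reads day 0 in the sample titles and day 1 in the time label, and is called day 1. There were 18 chinmoST testis, 18 wild-type testis, 18 chinmoST ovary and 15 wild-type ovary libraries. Every library was made from many pooled pairs of gonads, with no label of the fly batch. The 2 genotypes also differ in strain background, and the effect of the background cannot be told apart from that of chinmoST. Each library is a whole organ, so that more cells of a type and more RNA per cell cannot be told apart.

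Somatic cyst stem cells sit beside the hub at the tip of the testis, renew themselves and give rise to the cyst cells that enclose developing male germ cells. Chinmo is a zinc-finger transcription factor that maintains both the renewal and the male identity of these stem cells. Without it the somatic lineage takes on features of ovarian follicle cells while early germ cells accumulate. Further systems that bear on the genes below are the fly's humoral immune response, in which Toll and Imd signaling induce small secreted peptides, and the basement membrane, the collagen sheet around epithelia and organs that is built in part from collagen secreted by fat body and blood cells.

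The libraries held 32462418 to 181988641 estimated counts, with a median of 81149428. The sperm-tail gene dj ranged from 413 to 1217 TPM in chinmoST testes and from 1095 to 2562 TPM in wild-type testes, against at most 17 TPM in any ovary. The eggshell gene Vm26Aa had at most 9.97 TPM in chinmoST testes and 2.19 TPM in wild-type testes, against 329 to 23703 TPM in ovaries. Not every marker was near 0 in the other organ: the germline gene vas had 9.28 to 127 TPM in chinmoST testes and 5.37 to 14.2 TPM in wild-type testes. The targeted gene, chinmo, had 68.6, 59.7 and 51.5 TPM in chinmoST testes at day 7, against 39.6, 86.8 and 88.4 TPM in wild-type testes. Over all days it spanned 31.7 to 91.4 TPM in chinmoST testes and 27.3 to 113 TPM in wild-type testes, and at most 1.36 TPM in ovaries. The transcript was thus present in every chinmoST testis library, and whole testes do not resolve the stem cells. Wild-type testis replicate 1 of days 3, 5, 7 and 9 stood apart, with 13.1 to 15.4% of counts in genes longer than 3000 bases against 22.8 to 25.4% in the other wild-type testis libraries. In ovaries, 5 wild-type libraries (days 3 and 5 replicate 3, day 7 replicate 2, both of day 11) and 2 chinmoST libraries (day 1 replicate 1, day 9 replicate 3) had less than 25% of counts in such genes. Results that these libraries moved are given with and without them. Among chinmoST testes, day 1 replicate 3, which the rule used, had the lowest share of counts in genes longer than 3000 bases. It had 19.9%, against 25.5 and 24.8% in the other libraries of day 1. Its accessory gland marker genes summed to 10335 TPM, against 1294 and 1630 TPM. Without this library 109 genes met the rule, 57 of them among the 78.

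From day 1 to day 5 the chinmoST mean of 74 of the 78 genes went up by at least 0.3 on the log2 scale, and the wild-type mean of 37 went down by as much. Both happened in 33 genes, the chinmoST increase alone in 41 and the wild-type decrease alone in 4. The median change from day 1 to day 3 was 0.55 in chinmoST and -0.36 in wild type, and from day 1 to day 5 it was 0.98 in chinmoST and -0.27 in wild type. The left-out wild-type replicate 1 exceeded its fellow replicates by a median of 0.33 at day 3 and 0.47 at day 5 on the log2 scale. It also exceeded the lowest chinmoST library for 20 genes at day 3 and 13 at day 5.

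The rule sat in a continuum. Differences of at least 0.8 at both days were seen for 307 genes, of which 215 were already at or above 0.3 at day 1 and 14 at or below -0.3. Just inside the day 3 limit were babos (0.806), pst (0.806) and Obp56d (0.807), and just outside it CG14830 (0.795), CG43897 (0.792) and ringer (0.787). Just inside the day 5 limit were CG4259 (0.808), CG18853 (0.860) and CG16985 (0.886), and just outside it CG11891 (0.784). At day 1, Tep2 (0.292), Dso1 (0.292) and pst (0.298) were just inside, and Tsp42Ea (0.307) and Col4a1 (0.313) just outside. Col4a1 encodes the alpha1 chain of collagen IV, so that this pair of collagen genes was split by the day 1 limit: its partner vkg was kept.

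Drs, which encodes the antifungal peptide drosomycin, a classical Toll target (FBgn0283461, dm6 3L:3369556-3369942, plus strand), ranked first by the mean difference of days 3 and 5. It had 0.41, 1.22 and 4.53 TPM in chinmoST testes at day 1, against 0.67, 1.74 and 2.59 TPM in wild-type testes. At day 5 it had 16.7, 19.1 and 27.6 TPM in chinmoST testes, against 1.11 and 2.07 TPM in the kept wild-type libraries and 6.91 TPM in the one left out. The genotypes overlapped at day 1 and separated at day 5. Below Drs came CG14292, CG1468, Bbd, lncRNA:CR43684, CG42807, CG43351, CG6503, IBIN and snoRNA:Psi28S-1175b. Bbd is needed for bomanin peptides to accumulate, and IBIN is a short gene induced by infection.

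CG16772, a gene without an assigned role (dm6 2L:19962679-19963844, plus strand), reached the highest level of the top 20 after day 5. Its values in chinmoST testes were 4.25, 4.69 and 14.6 TPM at day 1 and 65.4, 260.1 and 331 TPM at day 5, against 15.5, 3.13 and 5.71 TPM and then 11.5 (the library left out), 45.2 and 31 TPM in wild-type testes. In contrast, snoRNA:Psi28S-1175b, a guide RNA hosted within RpS16, was chosen by single libraries. It was above 0 in 4 chinmoST testis libraries (14.5 TPM in 1 library of day 3, 10.2 TPM in 1 of day 5, 37.7 and 6.83 TPM in 2 of day 11) and was listed at 0 in all wild-type testes. Libraries made from poly(A) RNA measure such a short RNA poorly.

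**Figure D1:**
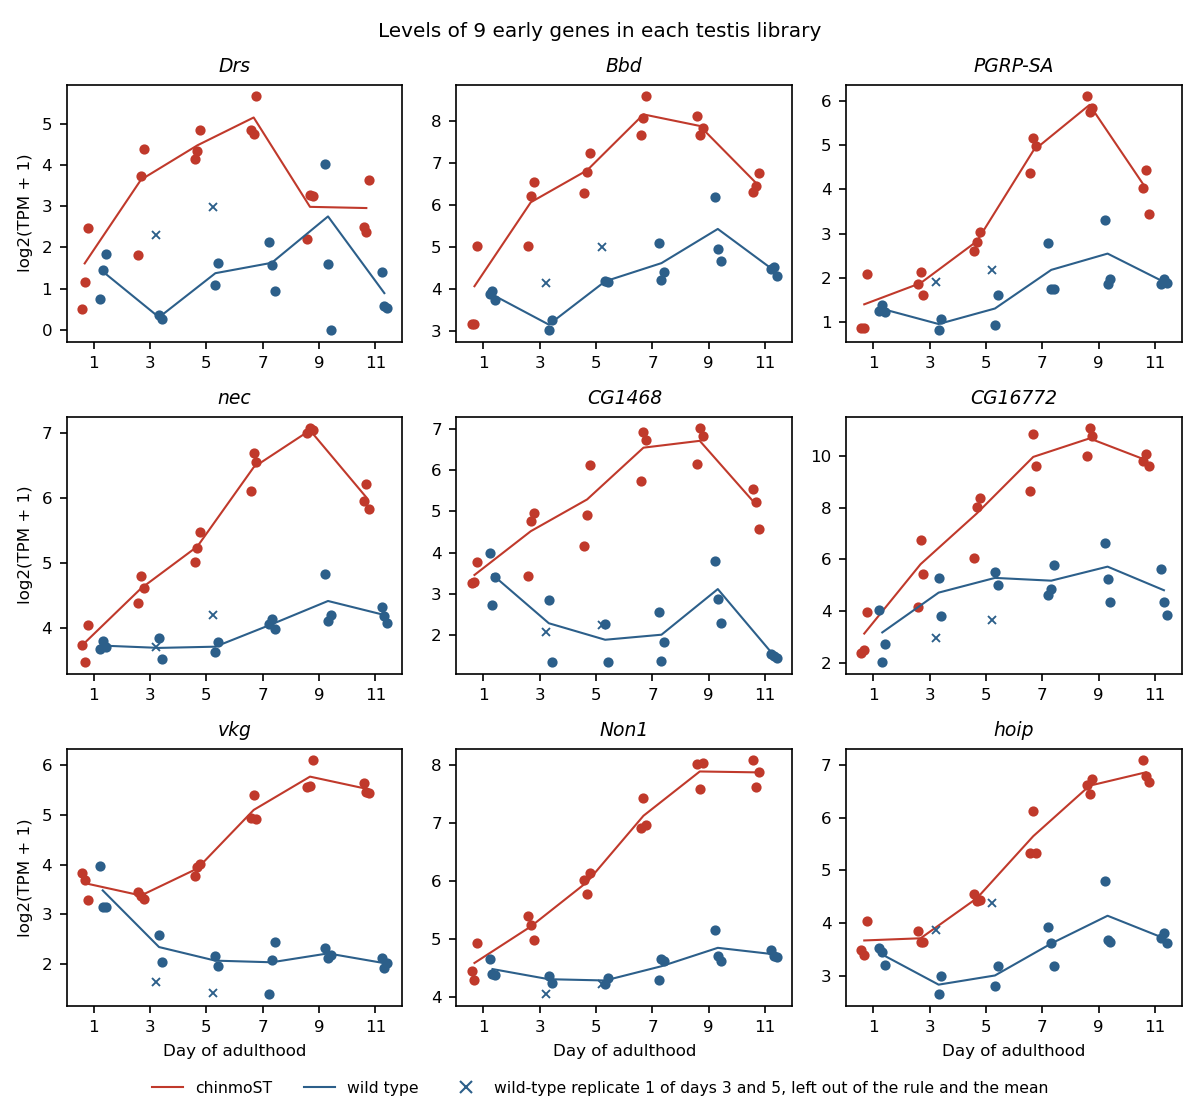
Levels of 9 early genes in testes as log2(TPM + 1) (vertical axis, which differs between panels and need not start at 0) by day (horizontal axis), with 1 point per library and a line through the group mean; chinmoST is drawn left of wild type at each day, and crosses mark the wild-type libraries left out of the rule. The groups overlap at day 1 and separate by day 5, and most panels are highest at day 7 or day 9.

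The 78 genes comprised 75 protein-coding genes, 2 noncoding RNAs and 1 snoRNA. They were short, with a median length of 1065 bases against 1534 bases over all genes tested in testes. Chromosome arm 2R held 26 of them (33.3%, against 19.7% of all genes tested), 2L held 17, 3R 12, X 12 and 3L 10, and myo lies on chromosome 4. Neighbouring pairs, 7 in all, within 20000 bases joined 13 genes: BomT1 and BomS4 lie 2723 bases apart, and GNBP-like3, CG30151 and Bbd follow one another within 2R. Another annotated gene overlaps 27 of the 78, among them nec, Mtk, BomS4, RpS5a and Tret1-1, whose counts may hold reads of the overlapping gene. CG44140 and CG44141 had identical values in every library, so that these 2 copies are 1 measurement. The counts given here nevertheless hold each as a gene of its own. Of 29 gene lists, 22 held none of the 78, including the lists of eggshell genes, germline oogenesis genes, follicle cell markers, sex determination and the JAK-STAT, Hedgehog, EGFR, Notch and Wnt pathways. The immune list held 9 of them, and no other list held more than 2.

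After the days used by the rule, nearly all of these genes stayed higher in chinmoST testes. With 18 libraries of days 7, 9 and 11, 76 of the 78 were testable, and a call was a Benjamini-Hochberg adjusted p under 0.05 over all genes with a fold of at least 1.5. At day 7, 67 were higher, against a background of 27.3% of all tested genes, at day 9 55 (background 29.5%) and at day 11 60 (background 33.1%). None was called lower at any of the 3 days (backgrounds 25.5, 30.7 and 30.9%), and none was lower at an unadjusted p under 0.05 by edgeR. Over the mean of the 3 days 72 were higher (background 32.9%) and none lower (background 31.8%; none at an unadjusted p under 0.05 by edgeR). The median log2 fold change was 2.18, 1.87 and 2.04 at days 7, 9 and 11, against -0.03, -0.01 and 0.09 over all genes. All 3 days were called for 52 genes (21.6% of all tested genes), 2 days for 9, 1 day for 8 and no day for 7. Every chinmoST library of days 7 to 11 lay above every wild-type library for 45 genes (background 29.8%) and for 64 (background 33%) without wild-type replicate 1 of days 7 and 9.

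The levels mostly peaked before day 11. The chinmoST mean peaked at day 9 for 52 genes and at day 7 for 21, and at day 11 for only 3. The median over the 78 genes of the chinmoST mean was 4.42, 6.69, 12.3, 23.3, 26.6 and 15.3 TPM from day 1 to day 11. In wild-type testes it was 3.83, 2.65, 3.19, 3.34, 4.76 and 3.13 TPM. These wild-type means include replicate 1 of days 3 and 5, which the rule left out. Between day 7 and day 11, 25 of the 76 fell within chinmoST testes (background 14.4%) and 3 rose (Non1, hoip and CG1894; background 16.4%). Within wild-type testes no gene of the whole table was called in either direction (0% each way; at an unadjusted p under 0.05 by edgeR 1 of the 76 was higher and 7 were lower).

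**Figure D2:**
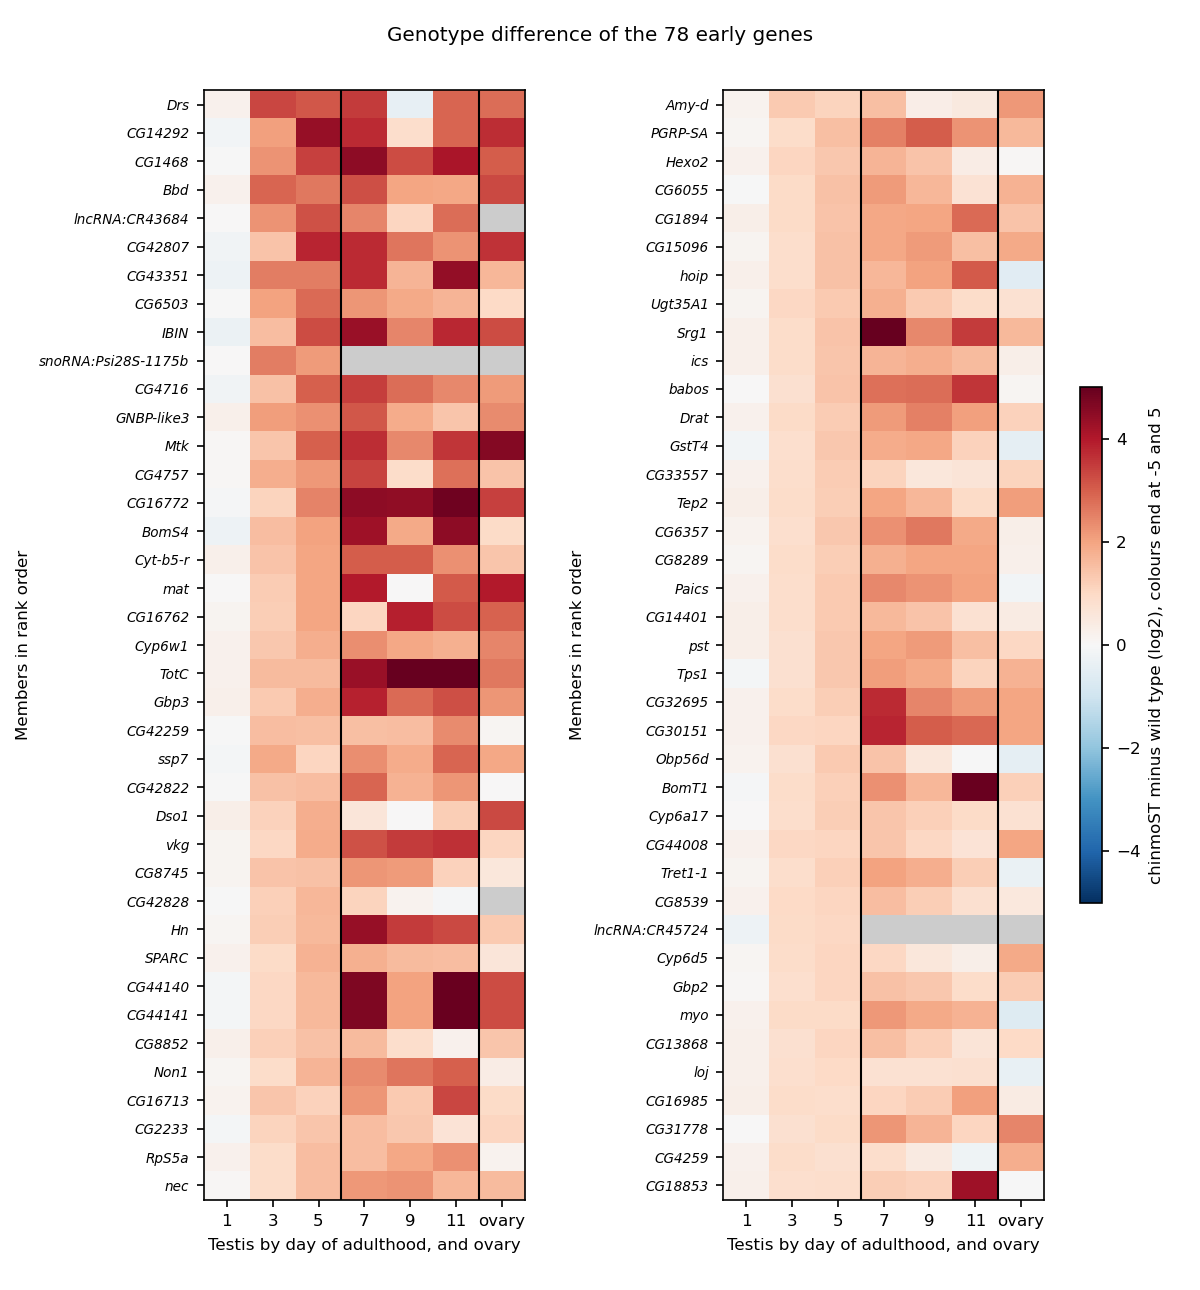
Difference between chinmoST and wild type on the log2 scale for the 78 genes (rows, in rank order over 2 panels) in testes at days 1 to 11 and in ovaries (columns); days 1, 3 and 5 are log2(mean TPM + 1) differences and the other columns fitted log2 fold changes, red is higher in chinmoST, colours end at -5 and 5, and grey is not tested. Days 1, 3 and 5 were fixed by the rule, while the later testis columns (67, 55 and 60 genes called higher) and the ovary column (50) were not.

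The immune genes among the 78 were 9: Drs, Mtk (metchnikowin), the bomanins BomS4 and BomT1, and Dso1 (a Daisho peptide) among the effectors, PGRP-SA and nec in Toll signaling, and TotC and Tep2 among stress and thioester proteins. TotC, a Turandot protein induced by stress, had 17.7, 14.6 and 25.1 TPM in chinmoST testes at day 7, 24.1, 27.4 and 24.7 at day 9 and 15.5, 11.8 and 4.08 at day 11. Wild-type testes had 1.11, 0.4 and 0.53 TPM at day 7, 0.49, 0.16 and 0.4 at day 9 and 0.6, 0.11 and 0.18 at day 11. No library of the 2 genotypes overlapped, and TotC had the highest log2 fold change of the 76 at day 11 (5.06, SE 0.71, adjusted p = 1.22e-05).

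PGRP-SA, the peptidoglycan receptor that feeds into Toll, and nec, a serpin that restrains Toll activation, were called higher in chinmoST testes at all 3 days. PGRP-SA had 19.6, 34.5 and 30.6 TPM in chinmoST testes at day 7 and 67.7, 52.9 and 56.4 at day 9, against 5.88, 2.39 and 2.37 TPM and 8.99, 2.67 and 2.93 TPM in wild-type testes, a log2 fold change of 3.04 at day 9 (SE 0.55, adjusted p = 0.000177). Its day 11 values were 15.2, 20.8 and 9.81 TPM in chinmoST testes, against 2.63, 2.95 and 2.72 TPM in wild-type testes, without overlap. For nec, the 9 chinmoST libraries ranged from 56 to 133 TPM with a median of 92.5, and the 9 wild-type libraries from 14.8 to 27.4 TPM with a median of 16.6.

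The effector peptides varied between libraries. Drs had 27.6, 25.9 and 49.6 TPM in chinmoST testes at day 7, 3.6, 8.62 and 8.46 at day 9 and 4.67, 4.15 and 11.4 at day 11, against 3.37, 1.95 and 0.93 TPM, 15.1, 2.04 and 0 TPM and 1.63, 0.49 and 0.44 TPM in wild-type testes. It was called higher in chinmoST testes at day 7 (log2 fold change 3.48, SE 1.10, adjusted p = 0.0123) and day 11 (2.89, SE 1.12, adjusted p = 0.0306). At day 9 the log2 fold change was -0.43 (adjusted p = 0.725), and without wild-type replicate 1 of days 7 and 9, whose day 9 library held the 15.1 TPM, it was 2.30. The day 7 call was lost without replicate 2, and the day 11 call without replicate 2 or replicate 3. Mtk was called higher at all 3 days (3.70, 2.38 and 3.59), the day 9 call being lost without replicate 2 or replicate 3.

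BomS4 was called higher in chinmoST testes at all 3 days as well (log2 fold changes 4.24, 1.89 and 4.49). BomT1 was called higher at days 7 and 11 (2.30 and 4.96), with 1.67 and an adjusted p of 0.0951 at day 9 and levels of at most 3.21 TPM. Leaving out replicate 2 ended the calls of BomS4 at day 9 and of BomT1 at days 7 and 11, and leaving out replicate 3 that of BomT1 at day 7. The day 7 call of BomT1 was also lost with a replicate block and with all 36 testis libraries. Dso1, the most abundant of the 9, was not called at any day: it ranged from 811 to 3558 TPM with a median of 2004 in chinmoST testes and from 368 to 2258 TPM with a median of 667 in wild-type testes, where replicate 1 of days 7 and 9 had 2258 and 2220.3 TPM. Tep2 was called higher at all 3 days (1.96, 1.65 and 0.96, with SE 0.19 and adjusted p = 1.51e-06 at day 7), the day 11 call being lost with the gene-length correction.

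Most of the wider immune list was higher too. Of its 66 genes, 65 were in the tables and 59 were testable in testes: 42 were higher and 6 lower at day 7 (backgrounds 27.3 and 25.5%), 36 and 8 at day 9 (29.5 and 30.7%), and 34 and 7 at day 11 (33.1 and 30.9%). Among the 31 testable antimicrobial peptides 20 were higher and 4 lower at day 7, and among the 19 testable recognition and signaling genes 16 were higher and none lower, against the same day 7 backgrounds. The list was compiled with earlier results of these data known and includes the 9 genes that the rule chose, so these counts describe it and do not stand as separate evidence.

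Among the genes outside the list that encode signals or defence factors, 3 are described here, picked out after their values were seen. Gbp3, a growth-blocking peptide with cytokine activity, ranged from 3.01 to 16.8 TPM in chinmoST testes of days 7 to 11, against 0.32 to 2.46 TPM in wild-type testes, and was called higher at all 3 days (3.86, 2.83 and 3.23). Gbp2, its paralog, ranged from 29.8 to 57.3 TPM in chinmoST testes, against 9.02 to 17.8 TPM in wild-type testes. The antiviral gene pst (pastrel) ranged from 22.4 to 53.9 TPM in chinmoST testes, against 7.01 to 11.2 TPM in wild-type testes, with a log2 fold change of 2.13 at day 9 (SE 0.25, adjusted p = 3.24e-06). None of the 3 had overlapping genotypes.

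The basement membrane was represented by 2 of the 78. The gene vkg, the alpha2 chain of collagen IV (FBgn0016075, dm6 2L:5012144-5028191, minus strand), had 29.5, 41 and 29.1 TPM in chinmoST testes at day 7, 46.2, 46.8 and 67.2 at day 9 and 49.1, 43.1 and 42.6 at day 11. Wild-type testes had 1.64, 3.26 and 4.43 TPM at day 7, 4, 3.39 and 3.56 at day 9 and 3.34, 2.78 and 3.06 at day 11. Every chinmoST library lay above every wild-type library, and the log2 fold change was 3.67 at day 11 (SE 0.26, adjusted p = 4.2e-08). SPARC, a collagen-binding matrix protein, ranged from 61 to 107 TPM with a median of 80.2 in chinmoST testes of days 7 to 11, against 16.6 to 37 TPM with a median of 18.9 in wild-type testes. It was called higher at all 3 days (1.78, 1.56 and 1.53).

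Blood cells secrete much of the fly's collagen IV, and the summed level of the hemocyte markers was higher in chinmoST testes. Summed over the 13 hemocyte markers found that are not among the 78, TPM was 114 to 218 in chinmoST testes of days 7 to 11, against 24.1 to 61.99 in wild-type testes, and 37.2 to 84.6 against 15.3 to 41.0 at days 3 and 5. The sum included Col4a1, at 42.9 to 106 TPM in chinmoST testes, against 2.36 to 7.16 TPM in wild-type testes. The defining markers were low: Hml had 0.82 to 1.81 TPM in chinmoST testes, against 0.45 to 1.65 TPM in wild-type testes, and NimC1 1.02 to 3.22 TPM, against 0.19 to 0.88 TPM. The scavenger receptor gene crq had 23.1 to 47.9 TPM in chinmoST testes, against 5.4 to 11.6 TPM in wild-type testes. PPO1, PPO2, Hml, Pxn, Sr-CI, eater, He, NimB4 and lz overlapped between the genotypes. Col4a1 and crq had the highest levels of the summed markers in chinmoST testes. Of the 14 genes of the list, vkg included, 7 were called higher at day 7, 7 at day 9 and 3 at day 11 (backgrounds 27.3, 29.5 and 33.1%). Lower were 0, 0 and 2 (backgrounds 25.5, 30.7 and 30.9%), and the median log2 fold changes were 1.23, 0.98 and 0.15.

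Sums of some other tissue markers were also higher in chinmoST testes of days 7 to 11. Muscle markers (21 genes) summed to 1339 to 2110.03 TPM in chinmoST testes, against 892.5 to 1253 TPM in wild-type testes. Neuron and glia markers (15 genes) summed to 109.78 to 223 TPM, against 49.9 to 101 TPM, and gut, tubule and trachea markers (25 genes) to 183 to 571 TPM, against 43.5 to 111 TPM. The genotypes did not overlap in these 3 sums, but not every gene of the lists was higher. Of 15 neuron and glia genes, 6, 4 and 4 were called higher at days 7, 9 and 11 and 4, 6 and 6 lower. Of 19 testable gut, tubule and trachea genes, Amy-d included, 15, 10 and 4 were higher and 1, 2 and 3 lower. Of 21 muscle genes, 16, 14 and 14 were higher and 0, 1 and 2 lower. Backgrounds at these days were 27.3, 29.5 and 33.1% higher and 25.5, 30.7 and 30.9% lower. Terminal epithelium and sheath markers (8 genes) overlapped, with 56498 to 97970 TPM in chinmoST testes, against 28774 to 60164 TPM in wild-type testes. Accessory gland markers (39 genes) overlapped too, with medians of 164 TPM in chinmoST testes and 226 TPM in wild-type testes. Ejaculatory duct and bulb markers (8 genes), with medians of 528 and 850 TPM in that order, and pigment cell markers (8 genes), with 142 and 113 TPM, also overlapped. Their part in the levels of vkg, SPARC and the other early genes was not tested.

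**Figure D3:**
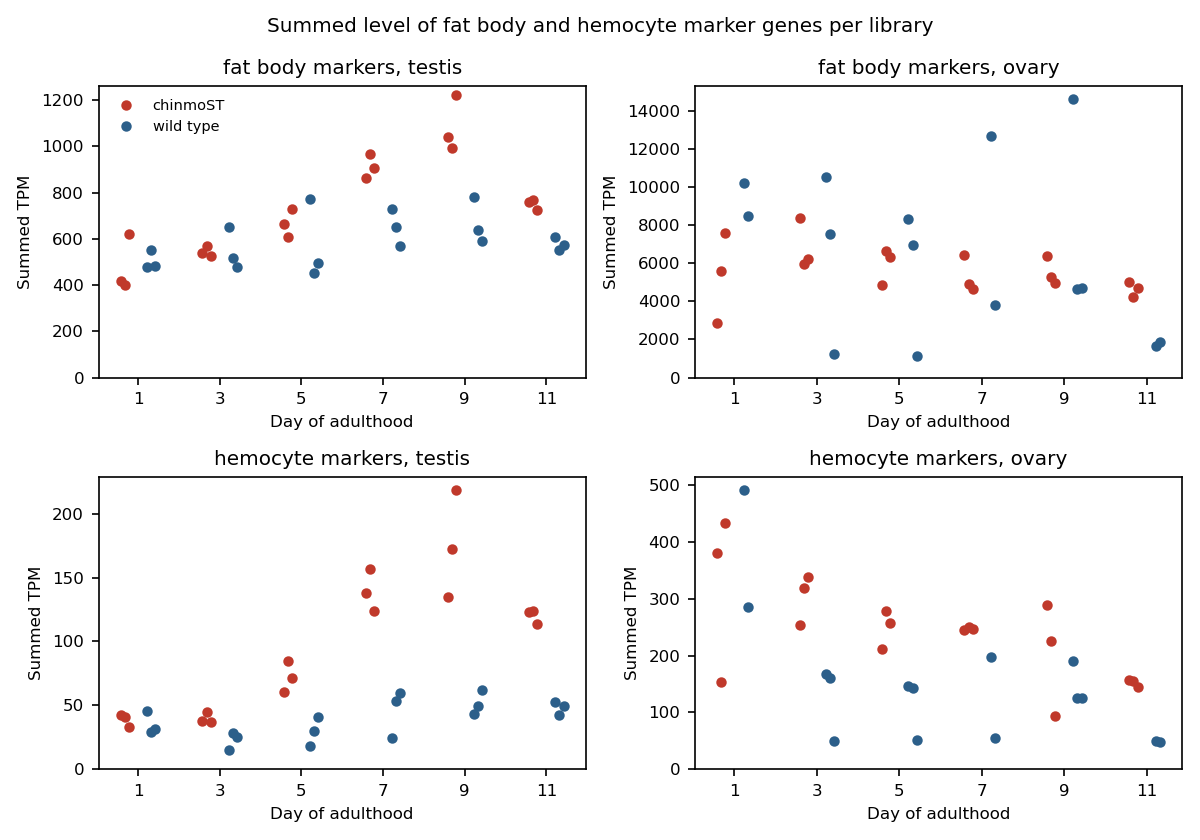
Summed TPM per library (vertical axis) of the fat body markers and of the hemocyte markers, without the 78 genes, by day in testes and ovaries, chinmoST left of wild type; each point is 1 library. In testes of days 7 to 11 the hemocyte sums of the genotypes do not overlap (114 to 218 in chinmoST against 24.1 to 61.99 in wild type). The fat body list holds the yolk protein genes Yp1, Yp2 and Yp3. In wild-type ovaries of days 7 to 11 these had 254 to 5902, 437 to 6948 and 239 to 1077 TPM. The fat body panel of ovaries is therefore largely yolk protein RNA and does not measure fat body.

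myo (myoglianin), a TGF-beta ligand of the Activin branch, was the only gene of the TGF-beta list among the 78. It had 11.4, 22.3 and 17 TPM in chinmoST testes at day 7, 13, 20.3 and 21.4 at day 9 and 18.8, 12 and 15.6 at day 11, against 1.77, 3.19 and 4.67 TPM, 2.23, 4.94 and 4.83 TPM and 4.51, 3.72 and 3.79 TPM in wild-type testes. The genotypes did not overlap at any of these days, and the log2 fold changes were 2.16, 1.88 and 1.73, each called.

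Enzymes and transporters formed another set. Apart from Amy-d and CG2233, which are on tissue marker lists, its members were grouped by role after their values were seen. Hn, the phenylalanine hydroxylase Henna, had 6.3, 11 and 7.4 TPM in chinmoST testes at day 7 and 10.5, 9.64 and 9.13 at day 9, against 0.32, 0.16 and 0.53 TPM and 1.08, 0.59 and 0.16 TPM in wild-type testes, with log2 fold changes of 4.36 and 3.48. Paics, an enzyme of purine synthesis, ranged from 15.5 to 30.8 TPM in chinmoST testes of days 7 to 11, against 2.57 to 5.28 TPM in wild-type testes (2.41 at day 7, SE 0.23, adjusted p = 1.1e-06). Both were higher in all 9 chinmoST libraries than in any wild-type one.

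Trehalose, the main blood sugar of insects, is made by Tps1 and imported by Tret1-1. Tps1 had 26.9, 37.8 and 33.9 TPM in chinmoST testes at day 7 and 21.4, 16.6 and 16.6 at day 11, against 5.34, 6.99 and 6.77 TPM and 7, 6.72 and 8.22 TPM in wild-type testes. Tps1 was called higher in chinmoST testes at all 3 days (2.08, 1.91 and 1.11), and so was Tret1-1 (1.99, 1.82 and 1.22). Among detoxification genes, the cytochromes P450 Cyp6w1 and Cyp6a17, the glutathione transferase GstT4 and the glucuronosyltransferase Ugt35A1 were called higher at all 3 days, with Cyp6w1 at 14.9 to 54.9 TPM in chinmoST testes, against 4.61 to 11.6 TPM in wild-type testes. The calls of Ugt35A1 at days 9 and 11 were lost without replicate 2 or replicate 3.

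The digestive enzyme gene Amy-d was called higher at day 7 (1.5) but not at day 9 (0.34, adjusted p = 0.197) or day 11 (0.50, adjusted p = 0.0614), with 11.9 to 34.8 TPM in chinmoST testes, against 7.35 to 12.9 TPM in wild-type testes. Its paralog Amy-p was lower, with 6.35 to 19.5 TPM in chinmoST testes of days 7 to 11, against 47 to 64.8 TPM in wild-type testes. How reads were divided between these amylase genes was not tested. CG2233, which is on the fat body and pigment cell lists, was called higher at all 3 days (1.53, 1.36 and 0.68). Its day 11 call was lost without replicate 1 and with all 36 testis libraries. Fat body markers other than CG2233, 25 genes, summed to 725 to 1221 TPM in chinmoST testes of days 7 to 11, against 554 to 781 TPM in wild-type testes, and to 527 to 731 against 451 to 773 at days 3 and 5. Of the 23 testable genes of the fat body list, CG2233 included, 11 were called higher and 4 lower at day 7 (backgrounds 27.3 and 25.5%), 11 and 3 at day 9 (29.5 and 30.7%) and 11 and 4 at day 11 (33.1 and 30.9%). The median log2 fold changes were 1.27, 1.35 and 0.64. Tsf1, which encodes transferrin, had 150.3 to 448 TPM in chinmoST testes of days 7 to 11, against 55 to 138 TPM in wild-type testes. Desat1, a fatty acid desaturase, had 179 to 244 TPM, against 79.3 to 137 TPM. Lsd-1, a lipid droplet protein, had 11.8 to 32.5 TPM, against 3.5 to 5.01 TPM. Neither these genes nor FASN1 and Adh overlapped between the genotypes. Obp99a went the other way without overlap, with 122 to 202 TPM in chinmoST testes, against 246 to 482 TPM in wild-type testes, as did Amy-p, given above. The larval serum protein Lsp1alpha and the receptor Fbp1 were at or near 0 in both genotypes, and Lsp2 was 0.67 to 1.13 TPM in chinmoST testes, against 1.26 to 1.61 TPM in wild-type testes. Their part in the levels of these genes was not tested.

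Genes of ribosome production and RNA processing were also gathered after their values were seen. They held 2 of the 3 genes that rose from day 7 to day 11 within chinmoST testes. Non1, a nucleolar GTPase of ribosome assembly, had 120.4, 173 and 124 TPM in chinmoST testes at day 7, 259, 191 and 262 at day 9 and 271, 198 and 235 at day 11. In wild-type testes it had 18.5, 24.2 and 23.6 TPM, 34.7, 25 and 23.6 TPM and 26.9, 25.2 and 24.8 TPM. The log2 fold change was 2.35 at day 7, 2.67 at day 9 and 2.99 at day 11 (SE 0.23, adjusted p = 6.65e-08), and no libraries overlapped.

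hoip, a protein of snoRNPs and the spliceosome (dm6 2L:9699791-9700459, plus strand), had 39.2, 68.8 and 39.4 TPM in chinmoST testes at day 7 and 134, 109 and 101 at day 11, against 14.3, 11.3 and 8.2 TPM and 12.1, 13 and 11.4 TPM in wild-type testes. It was called higher in chinmoST testes at days 7 (1.66, a call lost without replicate 2), 9 (2.0) and 11 (3.05). RpS5a, a protein of the small ribosomal subunit, ranged from 551 to 1302 TPM in chinmoST testes, against 135 to 353 TPM in wild-type testes. It was called higher at all 3 days (1.55, 1.93 and 2.27, the day 7 call lost without replicate 2). babos, without an assigned role here, was called higher at all 3 days too (2.77, 2.81 and 3.56). It had 12.2, 21.5 and 16.4 TPM at day 7 and 26.3, 23 and 25.3 TPM at day 11 in chinmoST testes, against 2.05, 1.7 and 2.06 TPM and 2.2, 1.85 and 1.52 TPM in wild-type testes.

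Not every early gene remained separate. CG14292, lncRNA:CR43684, CG42807, mat, CG16762, Dso1 and CG6055 were called at none of days 7, 9 and 11. CG14292 spread from 0.52 to 192 TPM in chinmoST testes, against 0.26 to 10.1 TPM in wild-type testes, and lncRNA:CR43684 from 12 to 225 TPM, against 1.84 to 134 TPM, its highest wild-type value being replicate 1 of day 9. The lowest log2 fold changes at day 11 were those of CG4259 (-0.22), CG42828 (-0.05), Obp56d (-0.04), CG8852 (0.22), Cyp6d5 (0.28) and Hexo2 (0.39), followed by Amy-d, CG33557, CG13868 and CG2233. Obp56d, an odorant-binding protein, had 9.59, 11.7 and 14.4 TPM in chinmoST testes at day 7 and 2.94, 3.68 and 3.7 at day 11, against 3.03, 3.32 and 3.66 TPM and 2.52, 3.79 and 2.75 TPM in wild-type testes, so that the genotypes were apart at day 7 and overlapped at day 11.

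The test of the change itself, the genotype difference at day 11 minus that at day 7, was negative and called for 8 genes (background 5.08%): CG8852 (-1.34), CG4259 (-1.10), Amy-d (-1.01), Tep2 (-1.0), Tps1 (-0.97), CG13868 (-0.86), CG2233 (-0.85) and Cyp6d5 (-0.74). CG8852 had 32.4, 24.4 and 21.9 TPM in chinmoST testes at day 7 and 10, 10.4 and 8.87 at day 11, against 5.31, 6.79 and 9.87 TPM and 8.27, 7.33 and 6.23 TPM in wild-type testes, a change of the difference with SE 0.23 and adjusted p = 0.00335. No gene was called with a growing difference (background 8.21%; 3 at an unadjusted p under 0.05 by edgeR, and 2 called by DESeq2). These counts hung on single replicates: the 8 became 34 without replicate 1, 24 without wild-type replicate 1 of days 7 and 9, and 0 without replicate 2 or without replicate 3.

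Wild-type ovaries were compared with wild-type testes over days 7, 9 and 11 (7 ovary and 9 testis libraries) to ask whether the early genes are ovary genes. Of 73 testable genes, 17 were higher in ovaries (background 33.4%) and 46 lower (background 53.9%), with a median log2 fold change of -2.19 against -1.28 over all genes. Every ovary library lay above every testis library for 13 genes (background 30.3%) and below for 29 (background 43.2%).

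Of the 17 genes higher in ovaries, hoip had the largest log2 fold change. It ranged from 426 to 838 TPM in wild-type ovaries, against 8.2 to 26.8 TPM in wild-type testes (log2 fold change 5.19, SE 0.30, adjusted p = 3.29e-10), and Non1 from 150.5 to 413 TPM, against 18.5 to 34.7 TPM (3.05). CG42259 (4.44), myo (4.0), Paics (3.60), babos (3.51), CG18853 (3.20), CG8289 (3.00), loj (2.31), which encodes a p24 protein of early secretory traffic, and CG42822 (2.16) followed, and vkg (1.87), RpS5a (1.85), Hexo2 (1.82) and Tret1-1 (1.56) were among the rest. For hoip and Paics the chinmoST testis levels lay between those of the 2 wild-type organs: hoip reached 134 TPM and Paics 30.8 TPM at most in chinmoST testes, whereas the lowest wild-type ovary library of days 7 to 11 had 426 and 45.3 TPM.

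Several of the 46 genes lower in ovaries were at or near 0 there. CG42828 ranged from 0 to 0.06 TPM in wild-type ovaries, against 119 to 542 TPM in wild-type testes, and lncRNA:CR43684 was listed at 0 in all 7 ovary libraries, against 1.84 to 134 TPM in testes. Dso1 ranged from 0.12 to 9.86 TPM in wild-type ovaries, against 368 to 2258 TPM in testes. CG16772 ranged from 0.01 to 1 TPM in ovaries, against 13.4 to 99 TPM in testes, and PGRP-SA from 0.01 to 0.23 TPM, against 2.37 to 8.99 TPM. Amy-d, Cyp6d5, CG1894, CG4259 and CG8852 also had levels of at most 1.46 TPM in these ovaries. Drs (-1.90, adjusted p = 0.107), IBIN (-2.19, adjusted p = 0.0868) and BomS4 (-0.51, adjusted p = 0.435) were not called.

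Many of the early genes were also higher in ovaries of the chinmoST strain. Over the 33 ovary libraries and the mean of 6 days, 50 of 74 testable genes were higher in chinmoST ovaries (background 14.3%) and 1 was lower (background 13.8%), and the median log2 fold change was 1.39 against 0.00 over all genes. Single days gave few calls higher: 1, 0, 1, 2, 1 and 16 from day 1 to day 11, with medians of 0.76, 1.23, 1.18, 1.63, 1.59 and 1.28 (backgrounds 0.244, 0.253, 0.261, 0.139, 0.148 and 15%). Calls lower were 4 at day 11 (background 22.8%) and 0 at the other days (backgrounds 3.92, 0.523, 0.436, 0.357 and 0.218% from day 1 to day 9). Restricted to days 3 to 9 without the libraries low in long genes, a choice made after the data were seen, 35 of 74 were called higher (background 9.48%) and none lower (background 4.36%). The filter on low counts removed 4 of the 78, and a gene near 0 in wild-type ovaries could pass it only through the chinmoST libraries.

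The highest log2 fold changes in chinmoST ovaries were those of Mtk (4.58, SE 0.98, adjusted p = 0.00152), mat (3.97), CG14292 (3.71), CG42807 (3.61), CG16772 (3.42), Dso1 (3.31), Bbd (3.30), IBIN (3.28) and the pair CG44140 and CG44141 (3.28 each). Bbd ranged from 10.9 to 90.3 TPM with a median of 17.9 in chinmoST ovaries of days 3 to 11, against 0.26 to 6.25 TPM with a median of 0.87 in wild-type ovaries, without overlap. Mtk had a median of 3.7 TPM and a highest value of 26 TPM in chinmoST ovaries, and was listed at 0 in 10 of 13 wild-type ovaries of these days, with a highest value of 2.76 TPM. At day 1 the wild-type ovaries were not low: IBIN had 11.8, 1.07 and 19.2 TPM in chinmoST ovaries, against 10.9 and 19 TPM in wild-type ovaries.

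Few ovary genes separated without overlap. Every chinmoST ovary library of days 3 to 11 lay above every wild-type one for 7 of 74 genes (background 0.889%), and for 13 (background 4.91%) over days 3 to 9 without the libraries low in long genes. None lay below in either set (backgrounds 0.357 and 0.793%). pst was one of the 7, with 8.73 to 18.4 TPM in chinmoST ovaries of days 3 to 11, against 2.78 to 8.23 TPM in wild-type ovaries (log2 fold change 1.02, SE 0.17, adjusted p = 0.00015). vkg ranged from 22.2 to 104 TPM in chinmoST ovaries, against 2.06 to 56.3 TPM in wild-type ovaries (1.08, adjusted p = 0.00803), with the 5 lowest wild-type values in the libraries low in long genes. Its call was lost over days 3 to 9 without those libraries and without replicate 2. myo was the gene called lower (-0.65, adjusted p = 0.0251), and over days 3 to 9 without the libraries low in long genes its log2 fold change was 0.17, the call being kept under 4 of 11 alternatives. Markers of other cell types moved in ovaries as well (background 14.3% higher and 13.8% lower). Called higher were 17 of 21 muscle markers, 10 of 13 hemocyte markers, 5 of 8 terminal epithelium and sheath markers, 6 of 13 neuron and glia markers, 7 of 23 gut, tubule and trachea markers and 7 of 25 fat body markers. The muscle, neuron and glia and fat body lists each had 1 gene called lower. Hemocyte markers outside the 78 summed to 93.8 to 338 TPM in chinmoST ovaries of days 3 to 11, against 48.1 to 198 TPM in wild-type ovaries, and muscle markers to 823 to 2618 TPM, against 199 to 1442 TPM. Without the libraries low in long genes the hemocyte sums were 145 to 338 TPM in chinmoST, against 125 to 198 TPM in wild type. The muscle sums were then 921 to 2618 TPM, against 845 to 1442 TPM, and both sums overlapped. The marker calls above included the libraries low in long genes. The part of these markers in the differences of the early genes was not tested.

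**Figure D4:**
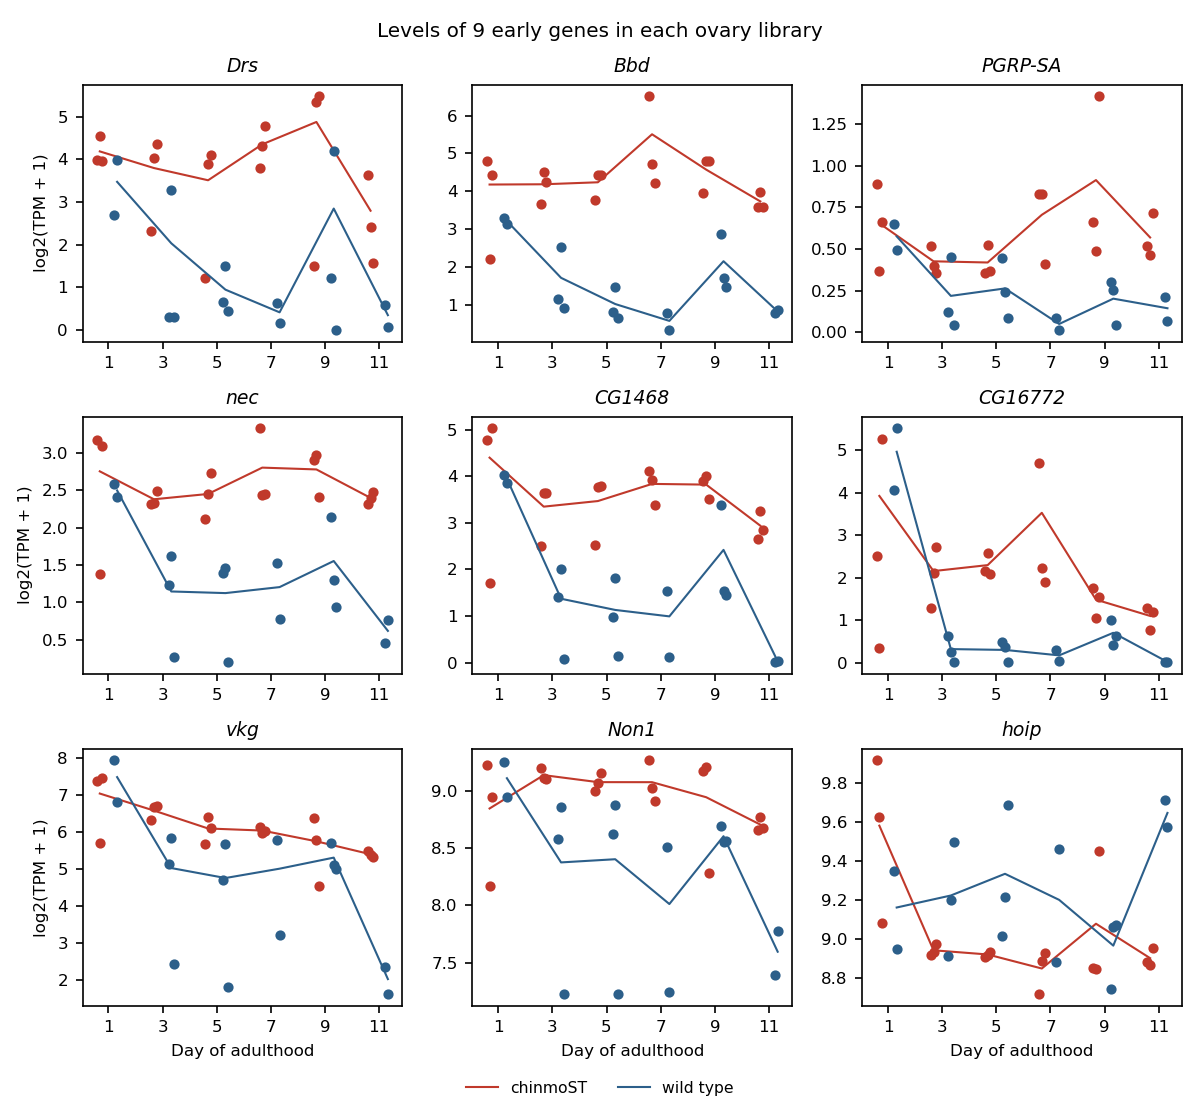
Levels of the same 9 genes in ovaries as log2(TPM + 1) (vertical axis, which differs between panels and need not start at 0) by day, with 1 point per library and a line through the group mean, chinmoST left of wild type. From day 3 on every chinmoST library of Bbd (10.9 to 90.3 TPM) lies above every wild-type one (0.26 to 6.25 TPM), while hoip and Non1 are high in ovaries of both genotypes.

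The wild-type ovary level separated 3 kinds of early gene. Over the 13 wild-type ovary libraries of days 3 to 11, 25 genes had at least 1 TPM in every library, 24 less than 1 TPM in every library and 29 were mixed. In chinmoST ovaries, 7 of the 25 testable genes of the first kind were higher and 1 lower (backgrounds 14.3 and 13.8%), with a median log2 fold change of 0.27. For the second kind 19 of 21 were higher with a median of 1.96, and for the mixed 24 of 28 with a median of 1.92. The wild-type ovary libraries set both the kind and the difference, so that these counts are a description. In testes of days 7 to 11, which share no library with the kinds, the 3 medians were 1.88, 2.35 and 2.03.

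Whether the genotype difference was larger in testes or in ovaries was tested with 1 model over the 34 libraries of days 7, 9 and 11, a comparison added after the data were seen. The difference was larger in testes for 26 of 76 genes (background 24.4%) and larger in ovaries for 11 (background 23.6%), and the median was 0.25 against -0.23 over all genes. babos (3.02, SE 0.27, adjusted p = 4.89e-10), hoip (2.79, SE 0.31, adjusted p = 2.52e-08) and myo (2.58, SE 0.25, adjusted p = 2.89e-09) led in testes. Dso1 (-4.12, SE 0.75, adjusted p = 3.87e-05), Amy-d (-2.34, SE 0.91, adjusted p = 0.0336) and Cyp6d5 (-2.09, SE 0.36, adjusted p = 2.19e-05) led in ovaries. Amy-d had at most 0.43 TPM in chinmoST ovaries and 0.23 TPM in wild-type ovaries of these days. Its call was lost with library size scaling, without replicate 3 and by limma, where the sign turned (0.82). The counts were 53 and 1 by limma, and 13 and 7 without replicate 2. Over days 7 and 9 without the libraries low in long genes the count larger in ovaries was 2, the call of Dso1 being among those lost.

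Most genes with a larger difference in testes were at 1 TPM or more in wild-type ovaries, again as a description. Of the 25 genes with at least 1 TPM in every wild-type ovary library, 21 had a larger difference in testes and none in ovaries (backgrounds 24.4 and 23.6%). Of the 23 testable genes under 1 TPM these were 2 and 4, and of the 28 mixed 3 and 7, both kinds under the background in testes. babos had 12.2 to 29.6 TPM in chinmoST testes of days 7 to 11, against 1.52 to 4.39 TPM in wild-type testes. In ovaries of those days it had 31.1 to 47.3 TPM in chinmoST ovaries, against 20 to 52.6 TPM in wild-type ovaries. Dso1 overlapped between the genotypes in testes and had 8.21 to 120.4 TPM in chinmoST ovaries of days 7 to 11, against 0.12 to 9.86 TPM in wild-type ovaries. On the immune list 31 of 52 testable genes were higher in chinmoST ovaries and 3 lower (backgrounds 14.3 and 13.8%). Of 27 antimicrobial peptides 18 were higher and none lower, and of 18 recognition and signaling genes 7 and 3, against the same backgrounds. As in testes, these counts describe the list and do not stand as separate evidence. It was compiled with earlier results of these data known and includes early genes. A listed gene near 0 in wild-type ovaries could pass the filter only through the chinmoST libraries.

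**Figure D5:**
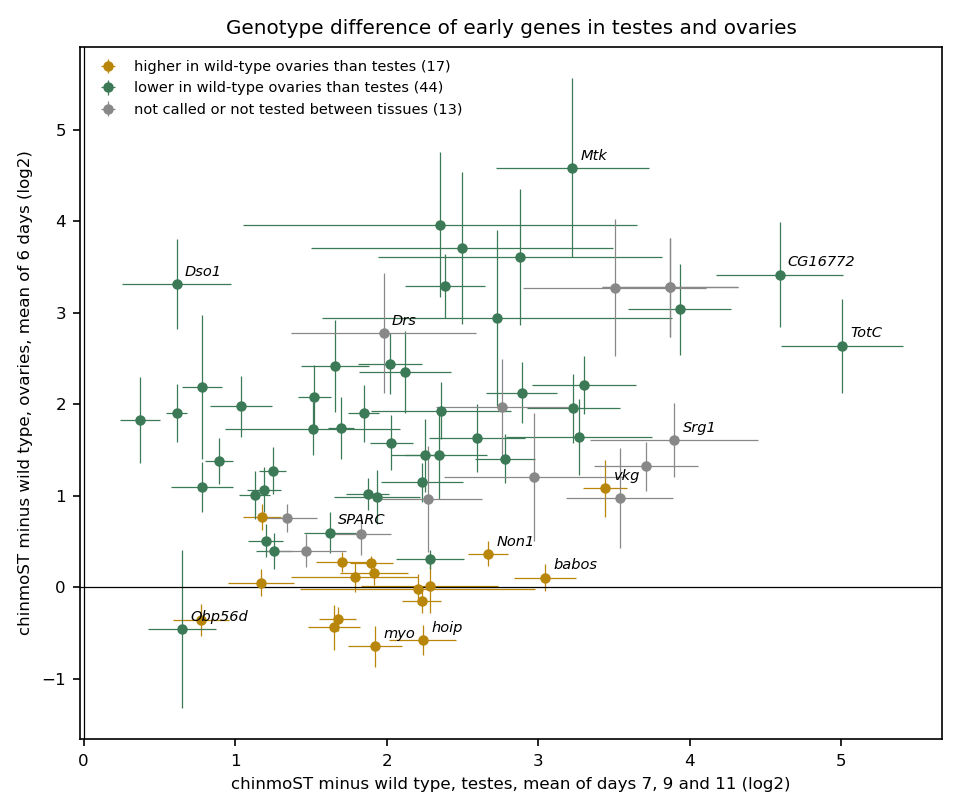
Log2 fold change between chinmoST and wild type in ovaries (mean of 6 days, vertical axis) and in testes (mean of days 7 to 11, horizontal axis) for the early genes tested in both, 1 point per gene with bars of 1 standard error, coloured by whether wild-type ovaries were higher than wild-type testes (17), lower (44) or not called or not tested (13). Genes such as hoip, Non1 and babos lie near or below 0.36 on the ovary axis, and Mtk and CG16772 at 4.58 and 3.42.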

How the data were processed

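Paired-end poly(A) RNA-seq libraries of testes and ovaries were used. Per the labels, the authors trimmed reads with Trim Galore and quantified genes on dm6 with RSEM and Bowtie2. The study's methods describe its single-cell RNA-seq and CUT&Tag but not the processing of these libraries. The deposited tables hold estimated counts (expected counts) and TPM per gene and library, TPM being the values the authors deposited without further normalization. Depth was 32462418 to 181988641 estimated counts. Coordinates and biotypes came from the BDGP6 annotation, which matched 17710 of 17807 identifiers.

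Estimated counts were rounded to whole numbers, filtered with filterByExpr, scaled by TMM and tested with edgeR 4.0.16 (quasi-likelihood) in R 4.3.3. A gene was called at a Benjamini-Hochberg adjusted p under 0.05 over all genes tested with a fold of at least 1.5. Testes of days 7, 9 and 11 (18 libraries), wild-type ovaries against testes (16), ovaries (33) and the genotype by tissue term (34, added after the data were seen) were fitted separately. Replicates are separate samples by their labels, and p-values measure the spread between them. Named were the 20 genes ranked highest, members on a gene list, the 10 highest and 10 lowest log2 fold changes at day 11, and up to 10 called each way between wild-type tissues and in chinmoST ovaries (52 genes with chinmo). Other genes named, such as Hn, Tps1, Tret1-1, Gbp2, Gbp3, pst, RpS5a, GstT4, Cyp6a17 and Ugt35A1, were chosen after their values were seen. The members and lists were chosen with earlier results of these data known. DESeq2, limma, library size scaling, a gene-length correction, a replicate block and leaving out replicates were the alternatives.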

Additional observations from a re-analysis of the deposited data

Results flagged for a closer look

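The genotype difference in testes changed between day 7 and day 11 by the test of the change itself for 8 early genes (background 5.08%; 0 without replicate 2 or without replicate 3), all towards a smaller difference: CG8852 (-1.34), CG4259 (-1.10), Amy-d (-1.01), Tep2 (-1.0), Tps1 (-0.97), CG13868 (-0.86), CG2233 (-0.85) and Cyp6d5 (-0.74) on the log2 scale.

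The genotype difference was unequal between testes and ovaries by the test of that difference for 26 genes with a larger value in testes and 11 with a larger value in ovaries (backgrounds 24.4 and 23.6%). These counts were 53 and 1 by limma, and 13 and 7 without replicate 2. Amy-d turned to 0.82 by limma. babos (3.02), hoip (2.79) and myo (2.58) were the highest, and Dso1 (-4.12), Amy-d (-2.34) and Cyp6d5 (-2.09) the lowest, in log2 units of testes minus ovaries.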

How the results depend on the processing

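The membership depended most on the rule's own settings: with wild-type replicate 1 kept 74 genes met it (51 of the 78 again), with a pseudocount of 0.1 199 (55), on TMM-scaled CPM 68 (32), with medians 81 (37), and leaving out single replicates 49 to 109 (42 to 77). Only 10 of the 78 met the rule in all 16 runs that each left out 1 library. Drs met it in 12 of these runs and Amy-d in 9. Genes with a growing difference numbered 0, but 2 by DESeq2, 4 without wild-type replicate 1 of days 7 and 9, 2 with the gene-length correction and 0 to 1 without single replicates. Those with a shrinking difference numbered 8, but 14 by DESeq2, 16 by limma on log2(TPM + 1), 4 with all 36 testis libraries, 24 without wild-type replicate 1 of days 7 and 9, 13 with the gene-length correction and 0 to 34 without single replicates. The count lower in chinmoST ovaries was 1, but 0 with library size scaling, 0 by limma, 4 over days 3 to 11, 0 over days 3 to 9 without the libraries low in long genes and 0 to 1 without single replicates. Genes with a larger difference in testes numbered 26, but 53 by limma and 13 to 31 without single replicates, and those larger in ovaries 11, but 1 by limma, 2 over days 7 and 9 without the libraries low in long genes and 7 to 12 without single replicates. The other counts stayed within 1.5 times: 57 to 72 at day 7, 40 to 69 at day 9, 48 to 64 at day 11 and 35 to 52 higher in chinmoST ovaries. Drs at day 9 ranged from -1.10 to 2.63 without single replicates and was 2.30 without wild-type replicate 1 of days 7 and 9, Amy-d between tissues changed sign to 0.82 by limma, and myo in ovaries to 0.17 over days 3 to 9 without the libraries low in long genes; the cause was not tested. Scaling by library size alone moved the median of all genes from -0.03 to 0.21 at day 7.

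Replicate numbers did not steadily pair the samples within days 7, 9 and 11: same-numbered deviations correlated at -0.45 to 0.32. Pairing at other days or across days was not checked. Wild-type testis replicate 1 of days 3, 5, 7 and 9 shared a low 13.1 to 15.4% of counts in long genes. With a replicate block the counts were 66, 58 and 61 at days 7, 9 and 11, 0 growing, 7 shrinking, 51 higher and 2 lower in chinmoST ovaries, and 26 and 11 between tissues.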
